A study of Mus musculus with 36 samples.

Results

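The protein kinase C genes and 2 further receptors for phorbol esters were followed across every group of a study of silica particles in mouse fibroblasts. The 10 genes were Prkca, Prkcb, Prkcd, Prkce, Prkch, Prkci, Prkcq, Prkcz, Prkd1 and Rasgrp1, of 22911 genes named on the array. They were found through the RefSeq accession that the scanner files give each probe, which matched 19 of 56605 probes. Testing required a probe to be well above background on 3 or more of the 4 arrays in 1 group or more. Of the 10 genes, 7 had such a probe, and Prkcq, Prkd1 and Rasgrp1 did not. The 7 genes had 13 tested probes, and the brightest probe of a gene stands for it unless another is named.

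Protein kinase C is a family of serine and threonine kinases that are switched on at membranes by the lipid second messenger diacylglycerol. Phorbol esters such as TPA, a classical tumour promoter, bind the same C1 domain as diacylglycerol and hold it in the active state for much longer, after which the activated kinase protein is degraded in many cells. The conventional isoforms (alpha from Prkca, beta from Prkcb) need both calcium and diacylglycerol. The isoforms delta, epsilon, eta and theta (Prkcd, Prkce, Prkch, Prkcq) respond to diacylglycerol without calcium, and the atypical isoforms iota and zeta (Prkci, Prkcz) respond to neither and bind no phorbol ester. Protein kinase D1 (Prkd1) and the Ras activator RasGRP1 (Rasgrp1) carry C1 domains of their own.

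RNA came from Bhas 42 cells, a clonal line of BALB/c 3T3 mouse fibroblasts into which the v-Ha-ras oncogene was introduced, so that controls and treated cells alike carry an active Ras. It was collected on day 6 after seeding, following 48 h of exposure that began on day 4, and each of 36 samples was hybridised to 1 one-colour array. The 9 groups of 4 arrays were water at 2%, NM-203, a synthetic silica of amorphous form, at 1, 2 and 5 µg/cm² (called NM-203 1, NM-203 2 and NM-203 5 here), DE (diatomaceous earth) at 5 µg/cm², Min-U-Sil 5, a crystalline silica, at 20 µg/cm², a separate water control that the labels tie to Min-U-Sil 5, TPA (12-O-tetradecanoylphorbol-13-acetate) at 0.05 µg/ml and its solvent DMSO at 0.1%. Although the series record counts 4 independent experiments, the labels do not assign arrays to them, and p-values therefore reflect nothing beyond the spread among these samples, with precision limited by their number. All 10 fibroblast markers examined, such as Col1a1 and Vim, were well above background on all 36 arrays. Of the markers of other lineages, 5 of 10 for T cells, 1 of 6 for B cells, 7 of 10 for macrophages, 2 of 6 for mast cells and platelets, 3 of 7 for epithelia and 2 of 5 for endothelium also read above background on all 36, among them Cd4, Itgam, Krt5 and Pecam1. Ptprc, Kit, Epcam and Tek did so on 0 arrays. Whether these marker probes are specific was not tested. The arrays lay on 5 slides scanned on 2 days. The water, DE, DMSO and TPA arrays were scanned on the first day, and the NM-203 2, Min-U-Sil 5 and matching water arrays on the second. Between the 2 water groups, 24.5% of the 32491 gene names tested differed at an adjusted p under 0.05, and 0 of the 7 genes did so in limma, with 2 at an unadjusted p under 0.05.

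The promoters of Prkca and Prkcd are shown because these were the only genes of the 10 called in a comparison of a treatment with its own control on the probe that stands for the gene. Each sequence is the 250 bases before the RefSeq start site on the assembly GRCm38.p6, 5′ to 3′ on the gene's strand. Prkca lies on the minus strand at chr11:108343889-108344138, and Prkcd, of which the first of 2 RefSeq entries is shown, on the minus strand at chr14:30626209-30626458. Capitals mark the GC box GGGCGG on either strand and the TATA box TATAAA.
Prkca: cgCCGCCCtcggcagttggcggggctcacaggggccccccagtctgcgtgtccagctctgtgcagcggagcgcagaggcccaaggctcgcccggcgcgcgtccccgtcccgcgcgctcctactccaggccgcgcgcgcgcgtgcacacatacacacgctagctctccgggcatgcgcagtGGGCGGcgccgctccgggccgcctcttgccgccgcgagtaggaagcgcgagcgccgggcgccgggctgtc
Prkcd: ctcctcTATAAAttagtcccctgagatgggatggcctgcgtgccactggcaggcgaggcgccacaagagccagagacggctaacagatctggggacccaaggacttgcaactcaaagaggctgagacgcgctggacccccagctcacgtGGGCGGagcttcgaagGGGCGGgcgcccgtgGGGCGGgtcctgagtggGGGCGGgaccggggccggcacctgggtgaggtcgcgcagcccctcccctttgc
The Prkca stretch held 2 GC boxes, at positions -248 and -70 from the start site. The Prkcd stretch held 4 GC boxes, at -101, -85, -70 and -53, and the letters TATAAA once, at -244, near the far end of the window. A GC box occurred in 32.7% and TATAAA in 12.4% of 32851 promoters of the same length. The AP-1 letters TGANTCA occurred in 6.75% of those promoters and the CRE letters TGACGTCA in 1.55%, and neither was found on either strand in these stretches. Neither motif was found in any of the 11 promoter entries held for 8 of the 10 genes. The table held no entry for Prkce or Prkch. These matches describe letters in a window and not binding.

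Of the genes called, Prkca moved most. Intensities here are scaled to a common 75th percentile, group means are geometric, and levels are not compared between probes. On the 4 DMSO arrays Prkca read 2438, 2331, 2637 and 2972. On the TPA arrays it read 1660, 1806, 1943 and 1962. All 4 TPA arrays thus lay below all 4 DMSO arrays. Prkca fell by 0.49 ± 0.11 on the log2 scale (SE, n = 4 per group), 1.40-fold lower, with a limma adjusted p of 0.00297. The call ended with scaling on the median of the genes tested (-0.47, adjusted p = 0.1) and with the mean of both Prkca probes (-0.27, adjusted p = 0.0508). In this comparison 11.7% of gene names were called and 19.7% had ranges that did not overlap, against 1 of 7 and 3 of 7 of these genes.

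NM-203 at its highest dose gave the lowest Prkca readings of the study. The water arrays read 1967, 2403, 2486 and 2325. The NM-203 5 arrays read 858, 793, 873 and 1074. No NM-203 5 array came near the water range, and Prkca fell by 1.36 ± 0.11 on the log2 scale, 2.56-fold lower (95% interval -1.58 to -1.13, adjusted p = 6.23e-11). In bulk RNA, fewer cells that express the gene and less RNA per cell cannot be told apart. Within slides the differences were -1.26 on slide 1 and -1.65 on slide 3, and -1.34 among arrays of the first scan day.

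The other doses of NM-203 gave readings between these extremes. At 1 µg/cm² the arrays read 2149, 1847, 2115 and 1968, with a change of -0.18 ± 0.11 (adjusted p = 1) and a range that overlapped water. At 2 µg/cm² they read 1564, 1635, 1674 and 2124. In that group 3 arrays lay below the water range and replicate 4 within it, and Prkca fell by 0.40 ± 0.11 (adjusted p = 0.00948). No NM-203 2 array shared a scan day with the water arrays, so dose and day cannot be told apart in that comparison. Against the water arrays of its own scan day the NM-203 2 change was -0.43 (adjusted p = 0.00951, with 15.6% of gene names called), and with the day as a block it was -0.33 (adjusted p = 0.312).

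Prkca also fell in Min-U-Sil 5. Its water arrays read 2624, 2053, 2408 and 2304. The Min-U-Sil 5 arrays read 1224, 1086, 1203 and 1133, all well under that range. Prkca fell by 1.01 ± 0.11 on the log2 scale, 2.02-fold lower (adjusted p = 4.03e-08), with differences of -0.96 on slide 4 and -1.03 on slide 5. DE, at the dose at which NM-203 gave its largest change, read 1863, 2217, 1661 and 2030. These overlapped water, and the change was -0.24 ± 0.11 (95% interval -0.47 to -0.01, adjusted p = 0.431). Against the DMSO arrays in place of water the DE change was -0.42 (adjusted p = 0.0367, with 2.78% of gene names called). Set directly against DE at the same dose, NM-203 5 differed in Prkca by -1.11 ± 0.11 (adjusted p = 4.2e-09), and the readings of the 2 materials did not overlap. On a second Prkca probe that difference was -0.27 and not called (adjusted p = 0.0559).

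In descending order the group means of Prkca were 2583 in DMSO, 2338 in the Min-U-Sil 5 water, 2286 in water, 2016 in NM-203 1, 1932 in DE, 1839 in TPA, 1736 in NM-203 2, 1160 in Min-U-Sil 5 and 894 in NM-203 5. Neighbours in this order overlapped down to NM-203 2. Only the steps from NM-203 2 to Min-U-Sil 5 and from Min-U-Sil 5 to NM-203 5 separated neighbouring ranges, by 0.58 and 0.38 in mean log2 level, and the second step sets different doses and control groups side by side.

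**Figure D1:**
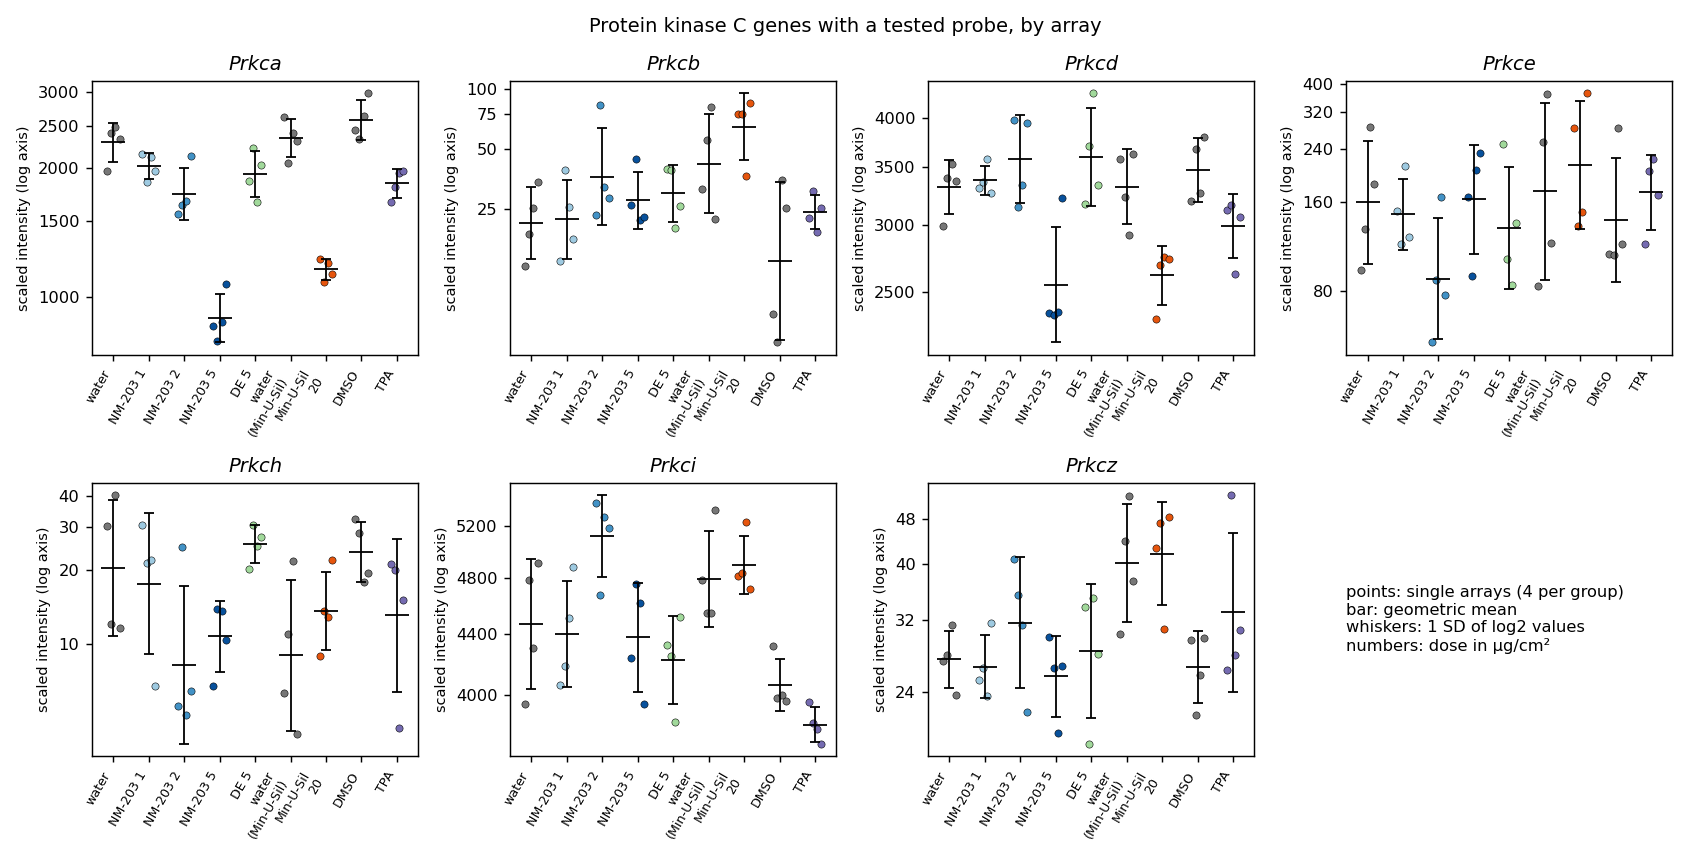
Scaled intensity of the 7 genes with a tested probe (log axis) on every array of the 9 groups; points are arrays, bars geometric means and whiskers 1 SD of the log2 values, n = 4. Prkca reads lowest in NM-203 5 (793 to 1074) and next in Min-U-Sil 5 (1086 to 1224), below every other group.

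The size of the TPA change was tested against each silica change, each treatment taken against its own control. The Prkca change under TPA was smaller than under NM-203 5, with a difference of 0.86 ± 0.16 on the log2 scale (95% interval 0.54 to 1.19, adjusted p = 0.000243). On a second Prkca probe this difference was 0.30 (95% interval -0.0048 to 0.61) and not called (adjusted p = 0.207). On the first probe the TPA change was also smaller than under Min-U-Sil 5, by 0.52 ± 0.16 (adjusted p = 0.0472), a call that held in 9 of 29 alternative settings. Leaving out 1 array at a time ended that call for 13 of 16 arrays, all but replicate 2 of the Min-U-Sil 5 water, replicate 4 of DMSO and replicate 1 of TPA, with differences of 0.47 to 0.55 and adjusted p of 0.0549 to 0.11. These 2 tests called 14.8% and 5.89% of all gene names, and 1 of the 7 genes each. Against NM-203 1, NM-203 2 and DE the differences were -0.31 (95% interval -0.63 to 0.02), -0.09 (-0.42 to 0.23) and -0.25 (-0.57 to 0.08), none of them called. In those 3 tests limma called 0 of the 7 genes, with 0, 2 and 1 at an unadjusted p under 0.05. All gene names were called at 1.62%, 10.7% and 1.78%.

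The values of Prkca so far come from probe A_66_P105791. A second probe gave smaller changes, several of them not called, and in NM-203 2 against water of the other scan day the opposite direction. Probe A_55_P1961436 read 1551, 1348, 1254 and 1183 in water and 983, 1012, 966 and 1212 in NM-203 5, a fall of 0.35 (adjusted p = 0.00897) with ranges that overlapped. In Min-U-Sil 5 it fell by 0.36 (adjusted p = 0.0102) and its ranges were apart. Under TPA it read 1369, 1160, 1356 and 1426 against 1242, 1319, 1408 and 1530 in DMSO, a change of -0.05 (adjusted p = 0.841). In NM-203 2 it read 1892, 1750, 1608 and 1508, and it rose by 0.34 against water (adjusted p = 0.0166), the opposite direction to the first probe. In the Min-U-Sil 5 water, of the same scan day as NM-203 2, it read 1783, 1623, 1482 and 1825. The means of these 2 groups were 1683 in NM-203 2 and 1673 in that water, so this rise cannot be told apart from the scan day. Between NM-203 5 and DE the second probe differed by -0.27 (adjusted p = 0.0559), with ranges that overlapped. Its TPA change differed from its NM-203 5 change by 0.30 (adjusted p = 0.207) and from its Min-U-Sil 5 change by 0.31 (adjusted p = 0.289). None of these 3 differences was called on the second probe, whereas all were on the first. The second probe was also higher in the Min-U-Sil 5 water than in water, by 0.33 (adjusted p = 0.0239). The log2 ratio of the first to the second probe within each array fell by 1.00 in NM-203 5, by 0.65 in Min-U-Sil 5 and by 0.44 in TPA. Each of these 3 had p = 0.0286 in a two-sided exact permutation test of 4 against 4 arrays, the smallest that design allows, and 0.0572 after Benjamini-Hochberg adjustment over 6 comparisons. For NM-203 2, NM-203 1 and DE the ratio changed by -0.74 (exact p = 0.0571), -0.24 (exact p = 0.143) and -0.16 (exact p = 0.371). The files give no probe sequences or positions, so the part of the transcript behind each probe was not analysed here.

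**Figure D2:**
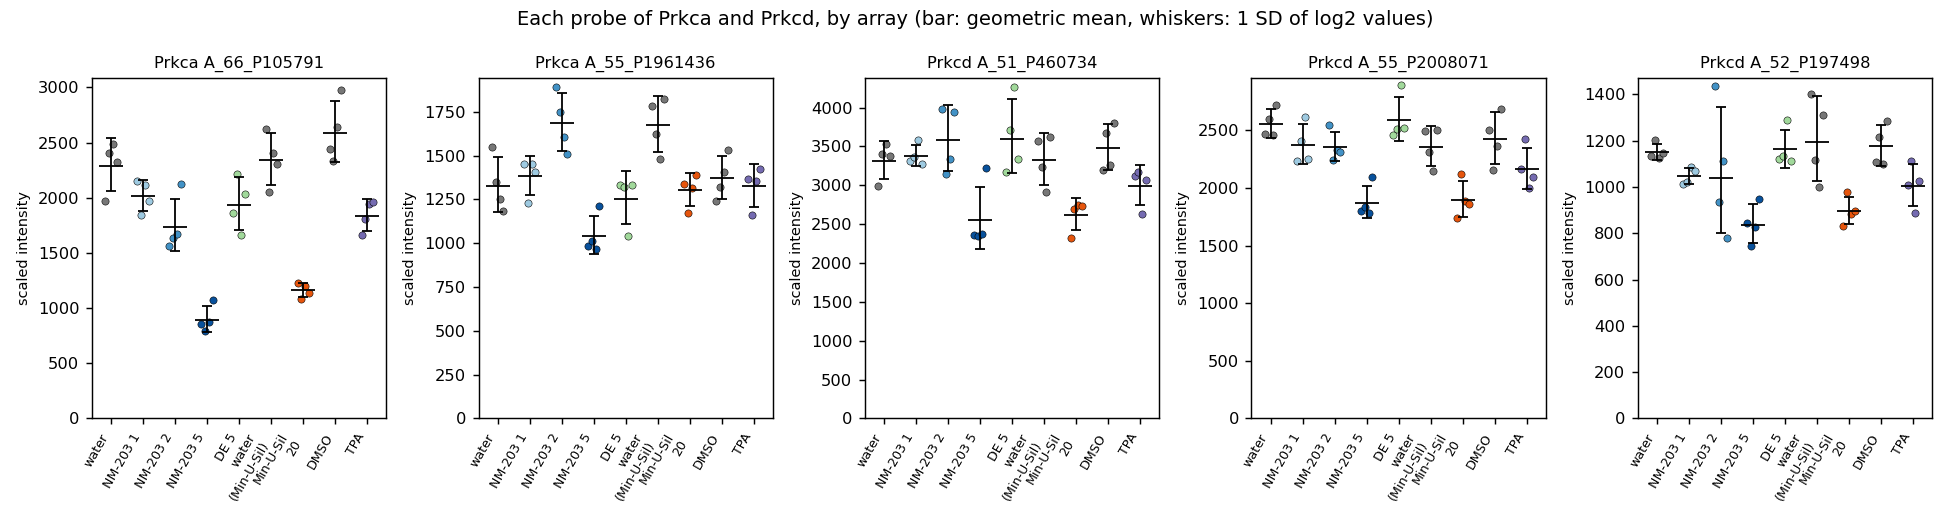
Scaled intensity of both Prkca probes and the 3 Prkcd probes on every array (axes from 0; points are arrays, bars geometric means, whiskers 1 SD of the log2 values, n = 4). The first Prkca probe drops from 2286 in water to 894 in NM-203 5, whereas the second drops from 1327 to 1039. The second reads highest in NM-203 2, at 1683, and next in the Min-U-Sil 5 water of the same scan day, at 1673.

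Prkcb, the other conventional isoform and best known from lymphocytes, was dim. Its probe was well above background on 25 of 36 arrays and read between 5.36 and 85.2. The DMSO arrays read 7.43, 5.36, 35.1 and 25.2 and the TPA arrays 22.6, 30.7, 19.2 and 25.4. The ranges overlapped, and the TPA change of 0.82 ± 0.50 did not pass (adjusted p = 0.349). The change in NM-203 2 was 0.77 (adjusted p = 0.269), and -0.22 against the Min-U-Sil 5 water of the same scan day (adjusted p = 0.783). Prkcb was not called in any comparison. Of its 2 further probes, 1 was well above background on 6 arrays and the other on 0.

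Prkcd, the isoform linked to apoptosis and to slowed growth in many cell types, moved less than Prkca. It read 2990, 3402, 3534 and 3376 in water and 2364, 2350, 2372 and 3220 in NM-203 5. Of the NM-203 5 arrays, 3 lay below the water range and replicate 4 within it. Prkcd fell by 0.38 ± 0.11 on the log2 scale, 1.30-fold lower (adjusted p = 0.0073). With it, 2 of the 7 genes were called in NM-203 5 and 1 had ranges apart, against 33.1% and 36.1% of all gene names, so this share was close to the background. Within slides the Prkcd difference was -0.29 on slide 1 and -0.59 on slide 3. The call ended with scaling on the median of the genes tested (-0.28, adjusted p = 0.303) and in a fit of only the 2 groups compared (adjusted p = 0.0587). It held without any 1 array, at -0.49 without NM-203 5 replicate 4 (adjusted p = 0.000528) and -0.34 without replicate 1, 2 or 3 (adjusted p of 0.0287 to 0.0304).

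In the Min-U-Sil 5 water Prkcd read 3576, 3231, 2915 and 3625. In Min-U-Sil 5 it read 2327, 2695, 2748 and 2734, all below its water. Prkcd fell by 0.34 ± 0.11, 1.27-fold lower (adjusted p = 0.0199). It passed no longer without Min-U-Sil 5 replicate 1 (-0.29, adjusted p = 0.0856) or without replicate 1 or 4 of its water (-0.31, adjusted p = 0.0681, and -0.30, adjusted p = 0.0668), nor with median scaling (adjusted p = 0.215) or in a fit of the 2 groups alone (adjusted p = 0.0706). Prkca and Prkcd made 2 of 7 genes called and 2 of 7 with ranges apart, against 25.6% and 27.3% of all gene names.

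Prkcd read 3199, 3677, 3265 and 3801 in DMSO and 3120, 3166, 2629 and 3067 in TPA. The ranges lay just apart, but the change of -0.22 ± 0.11 did not pass (adjusted p = 0.234). The TPA and NM-203 5 changes of Prkcd differed by 0.16 (adjusted p = 0.653), and the TPA and Min-U-Sil 5 changes by 0.12 (adjusted p = 0.846). Neither difference passed, which does not show that the changes were alike. Prkcd changed by 0.03 in NM-203 1 (adjusted p = 1), 0.11 in NM-203 2 (adjusted p = 0.497) and 0.12 in DE (adjusted p = 0.801). Against DE at the same dose, NM-203 5 differed in Prkcd by -0.50 ± 0.11 (adjusted p = 0.000679), so that 2 of 7 genes were called there, against 29.2% of all gene names. Ranges were apart for 2 of 7, Prkca and Prkch, against 28.4%. Prkch was tested only through NM-203 1 and DE, so its separation from DE is not read as a result. Median scaling and a fit of those 2 groups alone ended this Prkcd call (adjusted p = 0.168 and 0.0534). The other 2 Prkcd probes moved with the first: they fell in NM-203 5 by 0.45 (adjusted p = 9.06e-05) and 0.46 (adjusted p = 0.00395) and in Min-U-Sil 5 by 0.31 (adjusted p = 0.00603) and 0.42 (adjusted p = 0.0117), and their changes under TPA did not pass.

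Prkce, an isoform that has transformed rodent fibroblasts when overexpressed, was measured on all 36 arrays at 53.5 to 371 and varied widely within groups. The NM-203 2 arrays read 53.5, 86.9, 166 and 77.1, against 94.3, 130, 287 and 183 in water. The ranges overlapped, and the change of -0.86 ± 0.46 did not pass (adjusted p = 0.18). Under TPA the change was 0.32 ± 0.46 (adjusted p = 0.751) and in NM-203 5 it was 0.03 (adjusted p = 0.972). The second Prkce probe changed by -0.52 in NM-203 5 (adjusted p = 0.0724) and by -0.46 under TPA (adjusted p = 0.207).

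Prkch, an isoform best known from epithelia, was close to background. Its probe was well above background on 14 of 36 arrays, and on 0 of 4 in NM-203 2 and NM-203 5. The water arrays read 30.3, 12.0, 40.4 and 11.6 and the NM-203 2 arrays 5.54, 24.8, 5.08 and 6.39, so 3 of the 4 treated arrays lay below water. The difference did not pass (adjusted p = 0.0792). Since the probe was well above background on 2 of 4 water arrays and 0 of 4 NM-203 2 arrays, its size is only bounded, at least 1.20-fold lower. That bound sets the brighter group's mean against the lowest signal well above background on each array, or the probe's own where higher. Without NM-203 2 replicate 2 it passed (adjusted p = 0.0135), again against arrays not well above background, so no size is given. Against the Min-U-Sil 5 water, of the same scan day as NM-203 2, the Prkch change was -0.13 (adjusted p = 0.886). The Min-U-Sil 5 water itself differed from water by -1.19 (adjusted p = 0.111). The lower Prkch readings in NM-203 2 therefore cannot be told apart from the scan day. Under TPA the change was -0.86 ± 0.55 (adjusted p = 0.379).

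Prkci, the atypical isoform that works with the Par6 polarity proteins, was the most even of the 7 genes. Its readings ran from 3708 to 5390 over all 36 arrays. The TPA arrays read 3960, 3829, 3797 and 3708 and the DMSO arrays 4318, 3982, 4004 and 3962. All 4 TPA arrays lay below DMSO, by a margin so small that the change was -0.09 ± 0.08 (adjusted p = 0.585). In NM-203 2 the change was 0.20 ± 0.08 (adjusted p = 0.0785), which passed without water replicate 4 (0.24, adjusted p = 0.0483) or without NM-203 2 replicate 2 (0.24, adjusted p = 0.0431). Against the Min-U-Sil 5 water, of the same scan day, the NM-203 2 change was 0.10 (adjusted p = 0.435). In the other 4 comparisons of a treatment with its own control the Prkci change lay between -0.08 and 0.03. The 95% interval for NM-203 5 ran from -0.20 to 0.14, so that a fall of the size seen for Prkca lay outside it. The second, dim Prkci probe read 27.6, 29.9, 25.9 and 26.5 under TPA and 41.5, 40.1, 35.2 and 32.3 in DMSO, a change of -0.44 with ranges apart that did not pass (adjusted p = 0.0835). It was the only probe of the 13 called higher in NM-203 5 than in DE, by 0.62 (adjusted p = 0.00326). This dim probe was well above background on 3 of 4 NM-203 5 arrays and 2 of 4 DE arrays. The brighter Prkci probe differed there by 0.05 (limma adjusted p = 0.742).

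Prkcz, the atypical isoform zeta, was dim at 19.5 to 52.7 and well above background on 34 arrays. Under TPA it read 26.3, 52.7, 27.8 and 30.8 against 29.6, 22.0, 25.7 and 29.8 in DMSO. The ranges overlapped, and the change of 0.31 ± 0.22 did not pass (adjusted p = 0.424). Between the 2 water groups Prkcz differed by 0.55 ± 0.22 (adjusted p = 0.0593). Its second probe was well above background on all 4 arrays of Min-U-Sil 5 and of its water, and on 0 or 1 arrays of each other group. It was tested only through those 2 groups, so its differences from other groups are not given. Between Min-U-Sil 5 and its water it changed by 0.43 (adjusted p = 0.518). The remaining Prkcz probe was well above background on 0 arrays.

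The remaining 3 genes were not measured at a usable level. Prkcq, the T cell isoform theta, was well above background on 1 of 36 arrays, replicate 3 of the Min-U-Sil 5 water, at 14.5. Prkd1 and Rasgrp1, both phorbol receptors outside the kinase C family proper, were well above background on 0 arrays, with readings of 2.36 to 14.4 and 2.36 to 13.9. With the filter on dim probes removed, their TPA changes were -0.50 for Prkcq (adjusted p = 0.569), -0.24 for Prkd1 (adjusted p = 0.709) and -0.47 for Rasgrp1 (adjusted p = 0.499). They are differences between readings not well above background and give no fold.

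**Figure D3:**
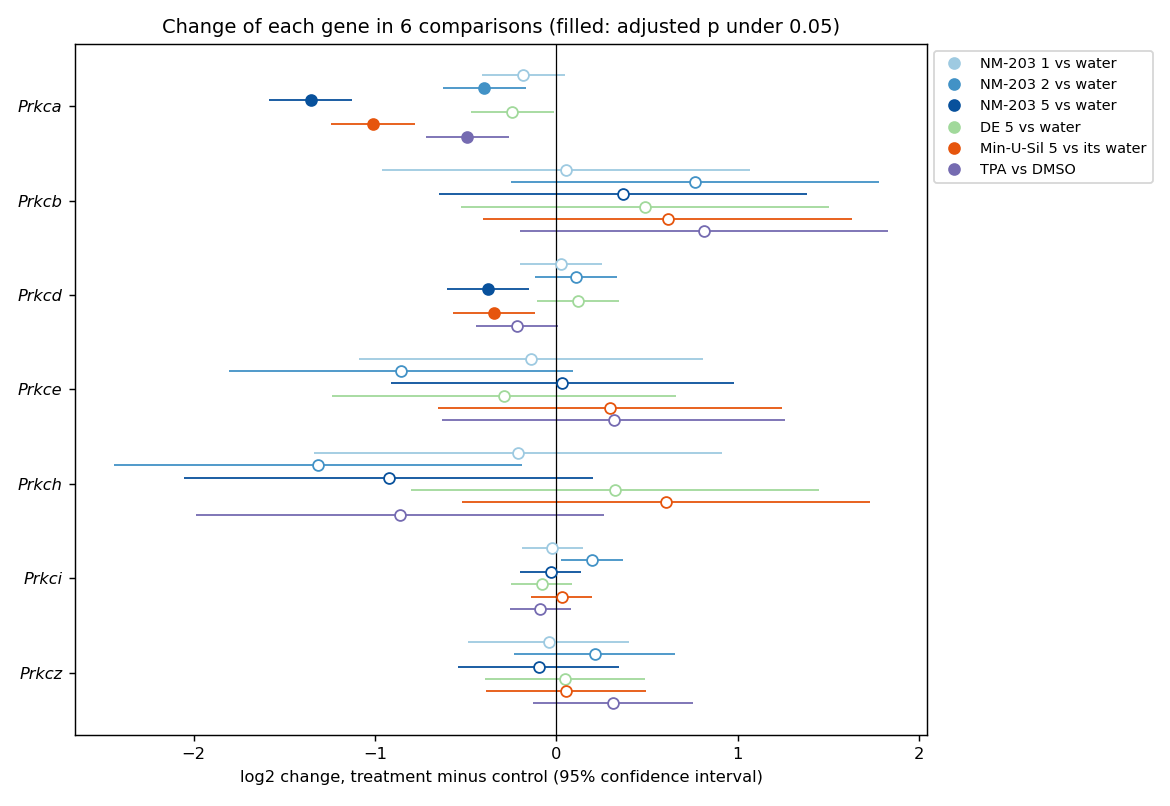
Log2 change of each of the 7 genes against its own control in 6 comparisons, with 95% confidence intervals from the limma fit (4 arrays per group); filled points passed an adjusted p under 0.05. Filled points appear for Prkca in NM-203 2, NM-203 5, Min-U-Sil 5 and TPA and for Prkcd in NM-203 5 and Min-U-Sil 5, all to the left of 0.

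Across the 7 genes the median change was -0.09 under TPA, beside -0.04 over all gene names. It was -0.10 in NM-203 5, beside 0.01. It was 0.05 in Min-U-Sil 5, beside 0.04, and 0.11 in NM-203 2, beside 0.11. The median of 7 genes is the value of 1 of them, in NM-203 5 and Min-U-Sil 5 the dim Prkcz, so it says little about the genes as a group. In NM-203 1 limma called 0 of 7 genes, with 0 at an unadjusted p under 0.05 and 0.0862% of all gene names called. In DE it also called 0 of 7, with 1, Prkca, at an unadjusted p under 0.05 and 1.01% of all gene names called. NM-203 2 called 1 of 7, against 25% of all gene names. NM-203 1, NM-203 2, NM-203 5 and DE were set against the same 4 water arrays, so their values share any error of those arrays. NM-203 2 shared no scan day with them, so its counts and changes, here and in the lists below, cannot be told apart from the day. The 2 waters differed in 24.5% of gene names, and NM-203 2 against the water of its own day in 15.6%.

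Among all gene symbols, those whose 6 changes lay nearest to those of Prkca were Pcdhb16, a protocadherin, and Galnt4, a glycosyltransferase, with root mean square differences of 0.04 and 0.06, beside a median of 0.82 over all symbols. Galnt4 changed by -1.23 in NM-203 5, -0.95 in Min-U-Sil 5 and -0.52 under TPA, all called, and Pcdhb16 by -1.35, -0.98 and -0.45, all called. For Prkcd they were Tango2 and Dtnb, at 0.05 and 0.06 beside a median of 0.42. These are descriptions over 6 comparisons, 4 of which share the water arrays.

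The other receptors for diacylglycerol and phorbol esters were called at shares near those of all gene names. Of 15 tested (of 17), 2 fell under TPA, 6 in NM-203 5, 4 in Min-U-Sil 5 and 3 in NM-203 2, 0 rose in any of these, and 0 were called in NM-203 1 or DE. Among all gene names 11.7%, 33.1%, 25.6% and 25% were called in those 4 comparisons, in either direction. Whether the common direction of these receptors differs from all gene names was not tested. Between the 2 waters 2 of the 15 were called higher and 0 lower, where 24.5% of all gene names were called. The median change of these receptors was -0.21 under TPA and -0.42 in NM-203 5, beside -0.04 and 0.01 over all gene names. Unc13b, a synaptic vesicle priming factor with a C1 domain, fell by 0.83 ± 0.21 under TPA (adjusted p = 0.0062), and its changes were -2.01 in NM-203 5 (adjusted p = 3.54e-09) and -1.09 in Min-U-Sil 5 (adjusted p = 0.000139). Prkd2, a protein kinase D isoform well above background on all 36 arrays, fell by 0.43 ± 0.13 under TPA (adjusted p = 0.0204) and by 0.42 in NM-203 5 (adjusted p = 0.0088). Rasgrp3, a Ras activator of the same family as Rasgrp1, was well above background on all 4 water arrays and 0 of 4 NM-203 5 arrays, at least 1.66-fold lower (adjusted p = 0.000128), and at least 2.16-fold lower in Min-U-Sil 5 (adjusted p = 2.48e-05). Unc13c fell by 1.40 in NM-203 5 (adjusted p = 1.22e-06) and by 1.41 in NM-203 2 (adjusted p = 6.35e-06).

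Scaffolds, partners and substrates of protein kinase C were called in both directions. Of 26 tested (of 27), 1 rose and 6 fell under TPA, 5 rose and 7 fell in NM-203 5, 4 rose and 8 fell in Min-U-Sil 5, 6 rose and 4 fell in NM-203 2, and 0 were called in NM-203 1 or DE. Among all gene names 11.7%, 33.1%, 25.6% and 25% were called in those 4 comparisons. The list's median change was -0.20 under TPA, -0.08 in NM-203 5 and -0.19 in Min-U-Sil 5, beside -0.04, 0.01 and 0.04 over all gene names. Akap12, a scaffold and substrate of the kinase, fell by 1.21 ± 0.14 under TPA, 2.31-fold lower (adjusted p = 2.36e-07), and its changes were -1.96 in NM-203 5 (adjusted p = 3.64e-12) and -1.46 in Min-U-Sil 5 (adjusted p = 2.91e-09). Pkn3, a kinase related to the C family, rose by 0.94 ± 0.13 under TPA (adjusted p = 3.59e-06) and by 0.50 in NM-203 5 (adjusted p = 0.00222). Wwc1 and Pard6b, which bind the atypical isoforms or their complex, fell under TPA by 0.60 (adjusted p = 0.00162) and 0.54 (adjusted p = 0.00225). In NM-203 5 their changes were -0.08 (adjusted p = 0.714) and -0.24 (adjusted p = 0.139). Sqstm1, the adaptor p62, rose by 0.78 in NM-203 5 (adjusted p = 0.000358) and by 1.03 in NM-203 2 (adjusted p = 3.5e-05), with a TPA change of -0.08 (adjusted p = 0.836). In NM-203 5 the phosphatase inhibitor Ppp1r14b rose by 0.74 (adjusted p = 1.87e-05), whereas its relative Ppp1r14a, on 0 of 4 arrays well above background against 4 of 4 in water, was at least 1.49-fold lower (adjusted p = 2.07e-05). Add1, a cytoskeletal substrate, fell by 0.53 there (adjusted p = 6.68e-05), and Pkn2 rose by 0.64 (adjusted p = 0.000213) and by 0.70 in Min-U-Sil 5 (adjusted p = 0.000108).

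Enzymes that make or remove diacylglycerol had more calls in NM-203 5 and Min-U-Sil 5 than under TPA, as did all gene names (33.1% and 25.6% against 11.7%), and the difference was not tested. Of 32 tested (of 35), 1 rose and 2 fell under TPA, 3 rose and 11 fell in NM-203 5, 4 rose and 8 fell in Min-U-Sil 5, 3 rose and 4 fell in NM-203 2, and 0 were called in NM-203 1 or DE. Their median change was -0.14 under TPA, -0.33 in NM-203 5 and -0.29 in Min-U-Sil 5, beside -0.04, 0.01 and 0.04 over all gene names. Plpp3, a lipid phosphatase, fell by 0.72 ± 0.17 under TPA (adjusted p = 0.00347), and its changes were -1.72 in NM-203 5 (adjusted p = 1.22e-09) and -1.35 in Min-U-Sil 5 (adjusted p = 2.51e-07). Dgka, a kinase that consumes diacylglycerol, fell by 1.20 in NM-203 5 (adjusted p = 9.92e-10) and by 1.07 in Min-U-Sil 5 (adjusted p = 2.17e-08), and its TPA change was -0.31 (adjusted p = 0.0804). Plcd1, a phospholipase that produces diacylglycerol, fell by 1.15 in NM-203 5 (adjusted p = 1.83e-09). The diacylglycerol kinases Dgkz and Dgke rose there by 0.57 (adjusted p = 0.00165) and 0.47 (adjusted p = 0.00588), and the phosphatidate phosphatase Lpin2 rose by 0.26 (adjusted p = 0.00683). Under TPA the lipase Daglb fell by 0.40 (adjusted p = 0.0313) and the sphingomyelin synthase Sgms2 rose by 0.64 (adjusted p = 0.00648). Plcb1 fell by 1.09 in NM-203 2 (adjusted p = 7.72e-06).

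The CARD, BCL10 and MALT1 proteins link the kinase to NF-kB. Of 8 tested, 1 rose under TPA, 3 rose in NM-203 2, 1 fell in NM-203 5 and 1 fell in Min-U-Sil 5. Among all gene names 11.7%, 25%, 33.1% and 25.6% were called in those 4 comparisons. The median change of the 8 was -0.02 under TPA and 0.14 in NM-203 5, beside -0.04 and 0.01. Card10, the CARD protein of non-immune cells, rose by 0.61 ± 0.15 under TPA (adjusted p = 0.00418). Malt1, the protease of the complex, fell by 0.50 in NM-203 5 (adjusted p = 4.74e-05) and by 0.30 in Min-U-Sil 5 (adjusted p = 0.0126). It rose by 0.36 in NM-203 2 (adjusted p = 0.00464), where treatment and scan day cannot be told apart.

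Transcripts known to be induced by phorbol esters had more calls in NM-203 5 and Min-U-Sil 5 than under TPA, as did all gene names (33.1% and 25.6% against 11.7%), and the difference was not tested. Of 17 tested (of 20), 4 rose and 2 fell under TPA, 10 rose and 2 fell in both NM-203 5 and Min-U-Sil 5, 4 rose and 2 fell in NM-203 2, and 1 rose in DE. Their median change was 0.27 under TPA, 0.81 in NM-203 5 and 0.57 in Min-U-Sil 5, beside -0.04, 0.01 and 0.04 over all gene names. Ereg, a ligand of the EGF receptor, rose by 0.90 ± 0.14 under TPA (adjusted p = 2.22e-05) and by 0.98 in NM-203 5 (adjusted p = 1.14e-06). Odc1, the polyamine enzyme long used as a marker of tumour promotion, rose by 0.49 ± 0.12 under TPA (adjusted p = 0.00713) and by 1.29 in NM-203 5 (adjusted p = 9.54e-10). Timp1, a protease inhibitor, rose by 0.51 under TPA (adjusted p = 0.00355) and by 0.57 in NM-203 5 (adjusted p = 0.000272). Dusp4, a MAP kinase phosphatase, rose 7.12-fold in NM-203 5 (log2 2.83, adjusted p = 6.5e-13), by 2.38 in Min-U-Sil 5 (adjusted p = 6.23e-11) and by 0.85 in DE (adjusted p = 0.0158), and its TPA change was 0.14 (adjusted p = 0.725). Ptgs2, the inducible cyclooxygenase, rose 6.81-fold in NM-203 5 (log2 2.77, adjusted p = 3.87e-11), with a TPA change of 0.28 (adjusted p = 0.519). Dusp6 and Ier3 fell under TPA by 0.89 (adjusted p = 0.000336) and 0.50 (adjusted p = 0.00351), and in NM-203 5 their changes were -0.18 (adjusted p = 0.484) and 0.07 (adjusted p = 0.752). The matrix metalloproteinases Mmp3 and Mmp13 fell by 3.50 (adjusted p = 1.06e-12) and 1.80 (adjusted p = 3.89e-08) in NM-203 5, and Mmp3 was well above background on 2 of 4 arrays there.

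The summed intensity of marker genes differed between some of these groups. For the 10 fibroblast markers it was lower on treated than on control arrays in NM-203 5, Min-U-Sil 5 and TPA. The sum ran from 644500 to 732300 in water and from 422400 to 574500 in NM-203 5, and from 648300 to 940300 in the Min-U-Sil 5 water and from 522800 to 572200 in Min-U-Sil 5. It ran from 700400 to 780900 in DMSO and from 608200 to 677800 in TPA, so treated and control arrays did not overlap in any of the 3 comparisons. In NM-203 1, NM-203 2 and DE it overlapped water, at 611300 to 840500, 644300 to 887600 and 652300 to 722200. Of these markers 6 of 10 fell in NM-203 5, 6 of 10 in Min-U-Sil 5 and 1 of 10 under TPA, and 0 rose, where 33.1%, 25.6% and 11.7% of all gene names were called in either direction. The sum of the 6 mast cell and platelet markers was also lower without overlap in NM-203 5, Min-U-Sil 5 and TPA. It ran from 755 to 827 in water and from 168 to 263 in NM-203 5, from 857 to 1056 in the Min-U-Sil 5 water and from 332 to 622 in Min-U-Sil 5, and from 772 to 912 in DMSO and from 345 to 544 in TPA. Of these 6, Kit was well above background on 0 arrays and Cpa3 on 6. Of the 5 tested, 2 were called lower in NM-203 5, 2 in Min-U-Sil 5 and 1 under TPA, and 0 higher. The median change of the 5 was 0.05, 0.20 and 0.25, so the lower sums do not describe the list as a whole. Pf4, a platelet chemokine, fell by 2.81 in NM-203 5 (adjusted p = 5.48e-11), 1.95 in Min-U-Sil 5 (adjusted p = 1.2e-07) and 1.73 under TPA (adjusted p = 2.73e-06). The endothelial sum was lower in NM-203 5, at 140 to 212 against 241 to 301 in water. In NM-203 2 the T cell sum ran from 2375 to 5099 against 8973 to 10640 in water, and the macrophage sum from 8311 to 13910 against 15190 to 21910. The epithelial sum there was higher, at 420 to 695 against 311 to 413. Of the markers tested, 1 of 9 for T cells was called lower and 0 higher. For macrophages 1 of 8 was called lower and 2 higher, and for epithelia 0 of 4 lower and 2 higher. The brightest probes weigh most in such sums, as Cd247 (mean intensity 4177) for T cells and Itgam (11203) for macrophages. The Min-U-Sil 5 water shared the scan day of NM-203 2 and overlapped it in all of these sums. They ran there from 3925 to 6669 (T cell), 11120 to 16500 (macrophage) and 385 to 774 (epithelial). These NM-203 2 shifts therefore cannot be told apart from the scan day. The part of these markers in the changes of Prkca and Prkcd was not tested.

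**Figure D4:**
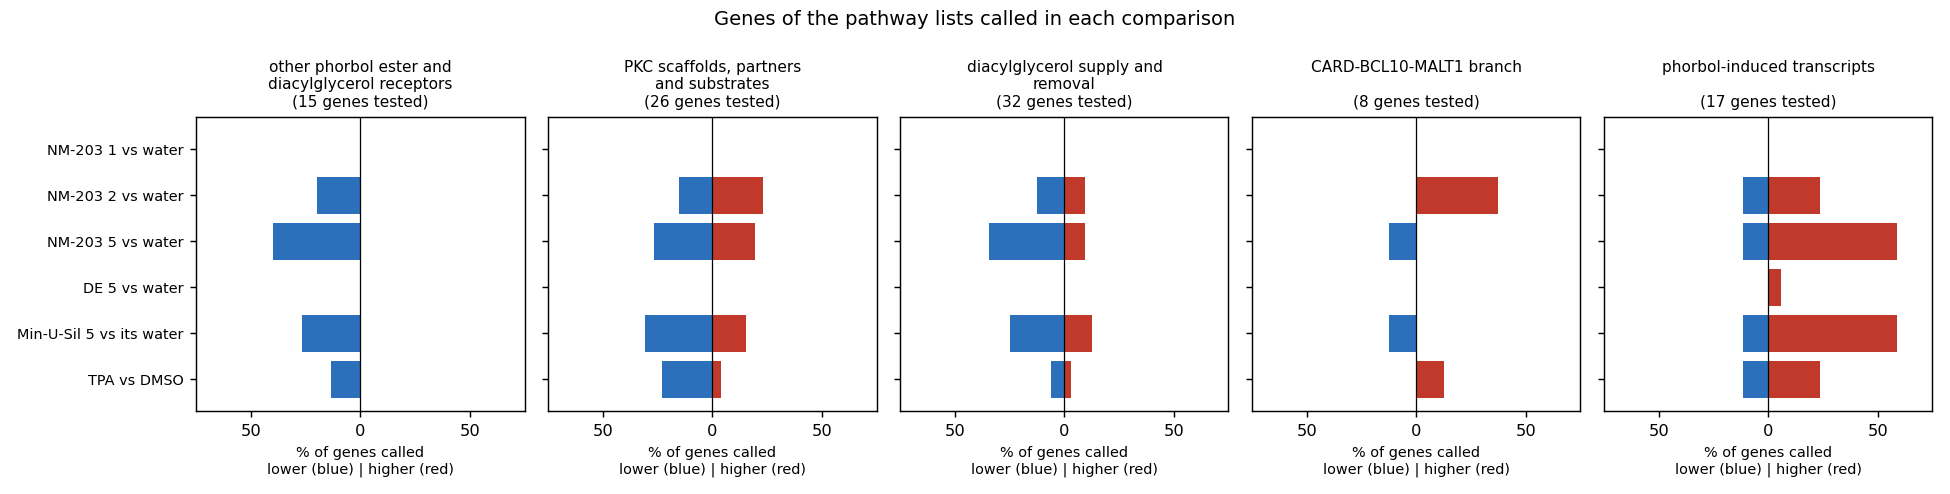
Share of the tested genes of 5 pathway lists called lower (to the left of 0) or higher (to the right) in 6 comparisons, in percent, at an adjusted p under 0.05. Other diacylglycerol receptors extend to the left only, and the phorbol-induced transcripts extend furthest to the right in NM-203 5 and Min-U-Sil 5, where 10 of 17 rose.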

How the data were processed

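RNA of 36 samples was measured on one-colour Agilent arrays, 1 per sample. Spot intensity was obtained by the authors with the scanner software Agilent Feature Extraction 11.0.1.1, per the file headers, which subtracted background and corrected spatial trends within an array and did nothing between arrays. A deposited table gives log2 values for these arrays after each probe's median was taken off. The scaling that the authors applied before is not given in the sources used here, and this table served only as an alternative. The deposited flags for outlier, saturated and well-above-background spots were used as given.

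From there, log2 of the processed intensity was taken minus each array's 75th percentile over the 59305 spots that were not controls. Outlier spots (74 to 380 per array) were left out. The 75th percentile ran from 531 to 1542, 55.1% to 76.2% of probes were well above background and 0 spots were saturated. Printed intensities are these values on a reference percentile of 762. The brightest tested probe stood for a gene name, which gave 32491 names, 17868 of them with a gene symbol from a RefSeq gene table (GRCm38.p6). The means of the 9 groups were estimated jointly from the 36 arrays (limma 3.58.1 in R 4.3.3, 27 residual degrees of freedom), and p-values were Benjamini-Hochberg adjusted over all names, with calls at an adjusted p under 0.05. The fit was tested on simulated data. Probe values come from a fit of all 40678 tested probes. Values after ± are standard errors. Promoters came from a RefSeq promoter table. Of each list, at most the 3 genes with the smallest adjusted p in each direction were named for TPA and NM-203 5, and at most 1 elsewhere, with their values in other comparisons given where useful. The genes whose changes lay nearest to a called gene were taken as the 2 with the smallest root mean square difference over the 6 changes. The 10 genes and the lists were chosen with earlier results of these data known. Alternatives covered the background correction, scaling, filter, slide and scan day as blocks, the replicate number as a block, the probe of a gene, the control group and each array left out in turn. Plots used matplotlib 3.10.9 under Python 3.11.15.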

Additional observations from a re-analysis of the deposited data

Results flagged for a closer look

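In groups of 4 arrays, 1 array was set apart where its gap to the next, divided by the whole range, passed Dixon's 95% critical value of 0.829. This held in 7 of 63 groups tested over the 7 genes, where chance alone gives about 1 in 20 groups. For Prkcd it was replicate 4 of NM-203 5 as the highest (0.971), replicate 1 of Min-U-Sil 5 as the lowest (0.883) and replicate 3 of TPA as the lowest (0.829). For Prkcb it was replicate 3 of Min-U-Sil 5 as the lowest (0.839), for Prkce replicate 3 of DMSO as the highest (0.914), for Prkch replicate 2 of NM-203 2 as the highest (0.855) and for Prkci replicate 1 of DMSO as the highest (0.880).

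The change of Prkca differed between treatments. Its fall under TPA was smaller than under NM-203 5 by 0.86 and smaller than under Min-U-Sil 5 by 0.52 on the log2 scale, each by limma's test of the difference. On a second Prkca probe the differences were 0.30 (adjusted p = 0.207) and 0.31 (adjusted p = 0.289), neither called. The doses and the control groups differ between these treatments.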

How the results depend on the processing

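Over the settings tried, 2126 values of single genes stayed on the same side of the threshold, 39 no longer passed and 14 newly passed. Of the values called in the main fit, 1 reversed. The direction of values called in neither fit was not compared, and some of these changed sign. The reversed value was Prkca in NM-203 2 against water, 0.34 on its second brightest probe. That setting was added after the 2 probes were seen to differ, and the NM-203 2 arrays shared no scan day with those water arrays. The call of Prkca held in 22 of 22 settings for NM-203 5 (-1.53 to -0.35), 21 of 21 for Min-U-Sil 5 (-1.07 to -0.36), 18 of 21 for TPA (-0.54 to -0.05) and 17 of 22 for NM-203 2. That of Prkcd held in 20 of 22 for NM-203 5 and 16 of 21 for Min-U-Sil 5. The number of the 7 genes called became, with scaling on the median of the genes tested, 0 for NM-203 2, 1 for NM-203 5, 1 for Min-U-Sil 5, 0 for TPA (Prkca -0.47, adjusted p = 0.1), 1 for NM-203 5 against DE, 1 between the waters and 0 for TPA against Min-U-Sil 5. That scaling moved the median of all genes by -0.10 in NM-203 5, -0.13 against DE and 0.32 between the waters. With normexp and quantile normalization 1 gene was called between the waters and 0 for TPA against Min-U-Sil 5, which was also 0 with no filter, with the slide as a block, with the slide as a random block (correlation 0.198) and in the deposited table. With the slide or the scan day as a block, NM-203 2 had 0. A fit of only the groups compared gave 0 for NM-203 2, 1 for NM-203 5 and 1 for Min-U-Sil 5, and against DE Prkcd was lost (adjusted p = 0.0534) and Prkch gained (adjusted p = 0.0086). Since Prkch was tested only through NM-203 1 and DE, that gain is not read as a result. The mean of a gene's probes gave 0 for NM-203 2, 0 for TPA (Prkca -0.27, adjusted p = 0.0508) and 1 between the waters, and against DE it added Prkci (0.34, adjusted p = 0.00569). The call between the waters was Prkcz, whose mean includes a probe tested only through Min-U-Sil 5 and its water. The second brightest probe gave 0 for TPA, 2 between the waters (Prkca and that Prkcz probe) and 3 for NM-203 5 (with that Prkcz probe, on 0 and 1 arrays well above background). It gave 0 for TPA against NM-203 5 (Prkca 0.30, adjusted p = 0.207) and against Min-U-Sil 5 (0.31, adjusted p = 0.289). Between NM-203 5 and DE it lost Prkca (-0.27, adjusted p = 0.0559) and gained Prkci (0.62, adjusted p = 0.00326). Calls that include that Prkcz probe are not read as results. With DMSO as the control, DE had 1. The cause of these differences was not tested. Leaving out 1 array at a time gave 1 to 3 for NM-203 2 (without water replicate 4, 2; without NM-203 2 replicate 2, 3), 1 to 2 for Min-U-Sil 5, 0 to 1 between the waters (without Min-U-Sil 5 water replicate 1, Prkcz 0.69, adjusted p = 0.0292) and 0 to 1 for TPA against Min-U-Sil 5. Same-numbered arrays did not deviate together (correlations 0.01 to 0.24 for TPA and DMSO, -0.60 to 0.33 for Min-U-Sil 5 and its water), so the numbers are not taken as pairs. With the replicate number as a block Prkca changed by -1.36 in NM-203 5 (adjusted p = 1.25e-10) and -0.49 under TPA (adjusted p = 0.00228), and the number of genes called was the same in every comparison. Prkcb, Prkch and Prkcz lie near background, where signal limits what 4 arrays can show.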
